A study of Mus musculus with 9 samples.

Results

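The CD300, PILR and SIRP genes and Cd47 encode paired immune receptors of myeloid cells and one of their ligands, and 9 of them were followed here across mouse splenic DC subsets: Cd300a, Cd300lb, Cd300ld, Cd300lf, Cd300lg, Pilra, Pilrb1, Sirpa and Cd47. They were taken by gene name from a table of 39179 genes. The 9 names matched 10 rows, because a pseudogene (ENSMUSG00000079488) also carries the name Cd47, and that row was at 0 in all 9 libraries. The other 9 rows are protein-coding genes, and all 9 had enough reads for a test. RNA came from 3 DC subsets sorted from the spleens of steady state (unstimulated) C57BL/6J mice aged 6 to 12 weeks, for which no engineered allele is named. These were CD8pos cDC1, CD8neg cDC2 (both conventional DC) and pDC (plasmacytoid DC), with 3 libraries each, and each replicate was a pool of 15 to 17 mice. Cells that bound lineage antibodies, among them CD3, Thy-1, Ly6G/Ly6C and TER-119, were depleted first. The sorted subsets were defined by CD11c, CD317, CD8 and CD11b, and the stains listed for the sort also include CD45RA and CD49b. None of the products of the 9 genes is among them. Each library is therefore an average over many animals, and the spread between libraries is a spread between pools.

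In paired receptor families, near relatives with similar extracellular domains carry opposite signals. The inhibitory form has a long tail with ITIM motifs, which recruit phosphatases such as SHP-1 (Ptpn6) and SHP-2 (Ptpn11), whereas the activating form has a short tail and signals through an adaptor with an ITAM motif, such as DAP12 (Tyrobp) or the Fc receptor gamma chain (Fcer1g). CD300a and CD300lf are inhibitory, CD300lb, CD300ld and PILRb are activating, PILRa and SIRPa are inhibitory, and CD47 on neighbouring cells binds SIRPa as a "do not eat me" signal that restrains phagocytosis.

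Counts on genes summed to between 15806597 and 32453789 per library, and replicate 3 had the lowest total in each subset. Levels below are TMM-normalized CPM (counts relative to the library's scaled total), and the floor of 3 counts lies between 0.0924 and 0.190 CPM, which covers counting error only. Defining markers followed the labels in part. The 8 pDC markers summed to 12271 to 13152 CPM in pDC and to 254 to 380.2 CPM in both cDC subsets. The 8 cDC1 markers summed to 6324 to 7139 CPM in cDC1, 430.3 to 565 in cDC2 and 4711 to 5252 in pDC, where Irf8 alone made 4244 CPM on average. The 8 cDC2 markers summed to 838 to 937 CPM in cDC2 and 75.4 to 115 in cDC1, but to 1169 to 1351 in pDC, through Clec10a and Cd209a. Itgam (CD11b) stood at 235 ± 13.5 CPM (SD, n = 3) in cDC2, against 11.6 ± 4.16 in cDC1 and 11.3 ± 4.0 in pDC.

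Most of these receptor genes were highest in cDC2. Between cDC2 and cDC1, 8 of the 9 genes were higher in cDC2 and none was lower at an adjusted p of 0.05 (quasi-likelihood test of edgeR, Benjamini-Hochberg adjustment across the 13819 genes tested), and Cd47 did not pass. Over all genes tested, 12.7% were higher and 11.7% lower in cDC2 at that threshold. Between pDC and cDC1, 6 were higher in pDC (Cd300a, Cd300lf, Cd300lg, Pilra, Sirpa and Cd47) and none was lower, beside 24.3% and 24.4% of all genes tested. Between pDC and cDC2, Cd47 was higher in pDC and 5 were lower (Cd300a, Cd300lb, Cd300ld, Pilrb1 and Sirpa), beside 22.5% and 23.3% of all genes tested.

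The median log2 fold change over the 9 genes was 2.75 for cDC2 against cDC1, and for pDC it was 1.24 against cDC1 and -0.89 against cDC2. Over all genes tested the medians were 0.03, 0.02 and -0.01. In cDC2 against cDC1, 8 of the 9 genes had every cDC2 library above every cDC1 library, as did 22.7% of all genes tested, while 21.8% had every cDC2 library below. In pDC against cDC1, 6 of the 9 had every pDC library above, against 29.1% of all genes tested, with 29.6% below. In pDC against cDC2, 1 of the 9 lay wholly above and 6 wholly below, against 27.6% and 28.5% of all genes tested. The 3 comparisons share libraries, so they are not independent of each other. In sorted bulk RNA, fewer expressing cells and less RNA per cell cannot be told apart.

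**Figure D1:**
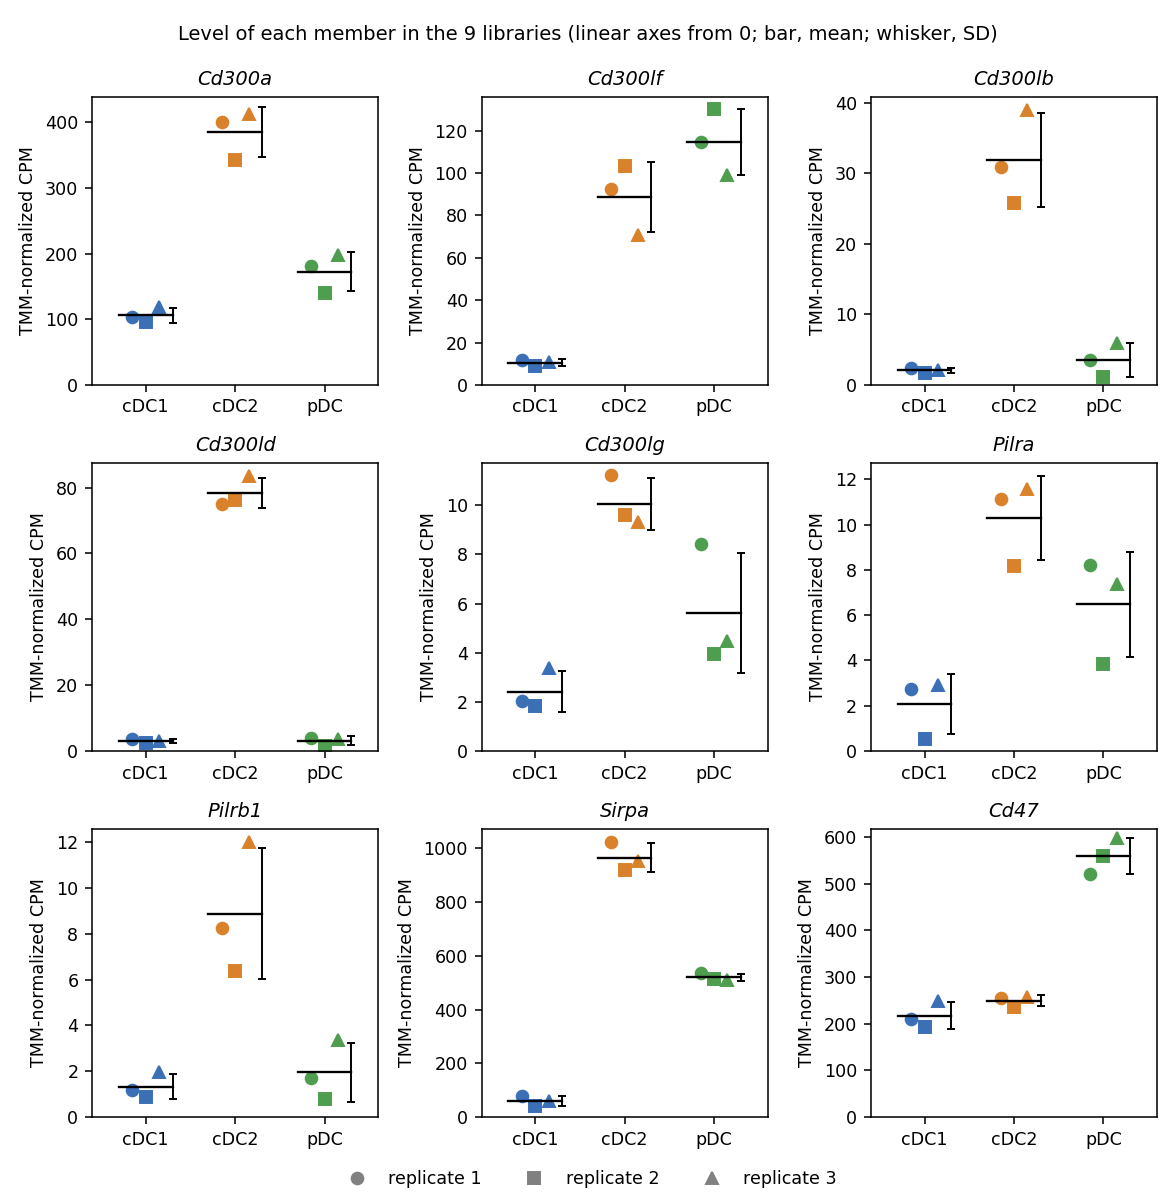
TMM-normalized CPM (y axis, linear from 0, scaled to each gene) of the 9 genes in the 9 libraries, by subset (x axis). Points are libraries with a symbol for each replicate number, bars are means and whiskers are SD (n = 3); Cd300ld stands at 75.1 to 83.5 CPM in cDC2 and at most at 4.06 elsewhere, whereas Cd47 is highest in pDC.

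**Figure D2:**
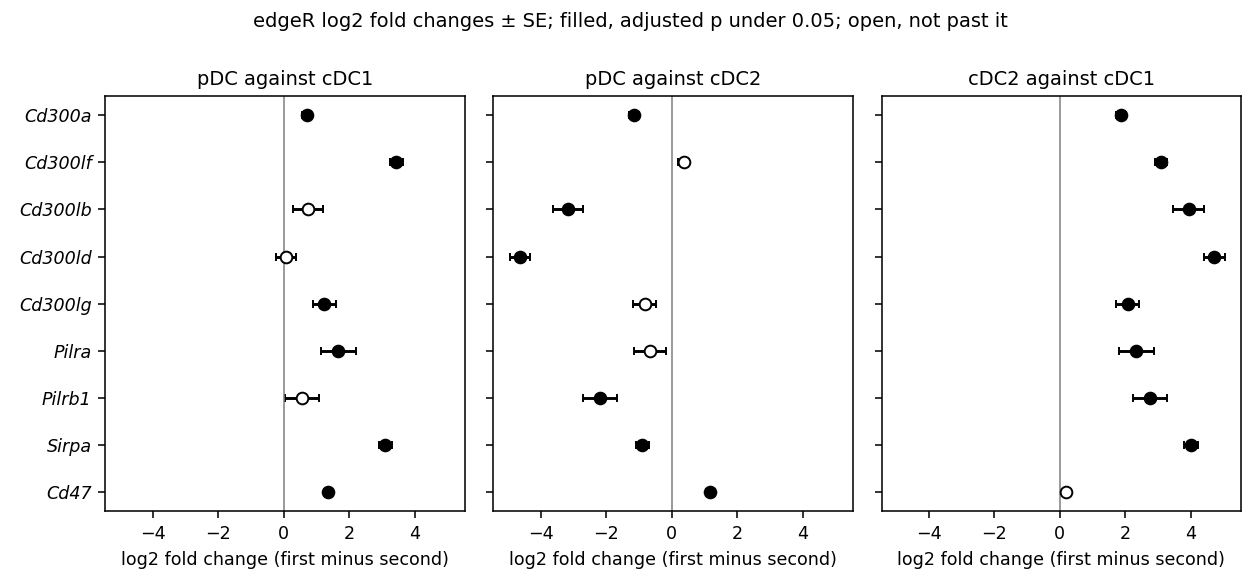
Log2 fold changes (x axis, first subset minus second, with SE from edgeR) of the 9 genes (y axis) in 3 comparisons. Filled points passed an adjusted p of 0.05 and open points did not; 8 of 9 points are filled on the positive side for cDC2 against cDC1.

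Sirpa (ENSMUSG00000037902, plus strand, chr2:129592835-129632228 in GRCm38) encodes the inhibitory receptor for CD47, and its product is commonly used to mark cDC2. It reached 1023, 919 and 953 CPM in cDC2 replicates 1, 2 and 3, and 536, 514 and 509.7 CPM in pDC. In cDC1 it stood at 79.0, 41.4 and 60.3 CPM. The subsets formed 3 separate levels, and no library of one overlapped another. Sirpa was higher in cDC2 than in cDC1 by 4.0 on the log2 scale (SE 0.214, adjusted p = 2.27e-06, edgeR), or 16-fold. The difference of pDC from cDC1 was 3.11 (SE 0.205, adjusted p = 1.49e-06, edgeR), and that of pDC from cDC2 was -0.89 (SE 0.190, adjusted p = 0.00356, edgeR). Thus a transcript often taken as a cDC2 marker was also 8.63-fold higher in pDC than in cDC1. None of the 75-base stretches (the read length) of Sirpa transcripts occurs in another annotated gene.

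Cd47 (ENSMUSG00000055447, plus strand, chr16:49800533-49915010) encodes the ligand of SIRPa and had another order. It stood at 521, 559 and 597 CPM in the pDC libraries, 256, 235 and 257 CPM in cDC2 and 211, 193 and 248 CPM in cDC1. Every pDC library lay above every cDC library, whereas cDC1 and cDC2 overlapped. Compared with cDC1, Cd47 was higher in pDC by a log2 fold change of 1.36 (SE 0.113, adjusted p = 6.44e-06, edgeR), and compared with cDC2 by 1.16 (SE 0.112, adjusted p = 2.08e-05, edgeR). Between cDC2 and cDC1 the value was 0.20 (SE 0.111, adjusted p = 0.251, edgeR), although scaling by library size only gave 0.31 (adjusted p = 0.0462, edgeR).

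Because Sirpa and Cd47 differ in length, their levels were compared as CPM per kb of exon. Sirpa per Cd47 was 5.10, 4.99 and 4.74 in the 3 cDC2 libraries, 1.31, 1.17 and 1.09 in pDC, and 0.478, 0.273 and 0.310 in cDC1. The ratio thus separated the subsets with no overlap, receptor over ligand in cDC2, near parity in pDC and ligand over receptor in cDC1. Each subset expressed both the receptor and its ligand.

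The activating relatives of Sirpa, the Sirpb1 genes, did not follow Sirpa into pDC. Sirpb1a had 289.7, 269 and 298 CPM in the cDC2 libraries, 13.1, 5.0 and 9.07 in cDC1, and 3.03, 0.456 and 0.236 in pDC. It was lower in pDC than in cDC2 by a log2 fold change of -7.65 (SE 0.714, adjusted p = 1.67e-05, edgeR), and lower than in cDC1 by -2.67 (SE 0.633, adjusted p = 0.00597, edgeR). Sirpb1b and Sirpb1c were also lower in pDC than in cDC2, by -6.03 (SE 0.529, adjusted p = 1.1e-05, edgeR) and -4.57 (SE 0.670, adjusted p = 0.000352, edgeR). Summed per kb, the 3 Sirpb1 genes made 0.772 ± 0.0414 of the Sirpa level in cDC2, 0.396 ± 0.0721 in cDC1 and 0.0119 ± 0.00772 in pDC (SD, n = 3). The pDC libraries therefore held the inhibitory SIRP transcript with little of the activating ones. The 3 Sirpb1 genes share 29.3%, 46.9% and 40.1% of their 75-base stretches with other genes, mostly each other. The split among them is therefore less certain than their sum. If reads that fit more than one gene were left out of the counts, the sum and its ratio to Sirpa are also too low.

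**Figure D3:**
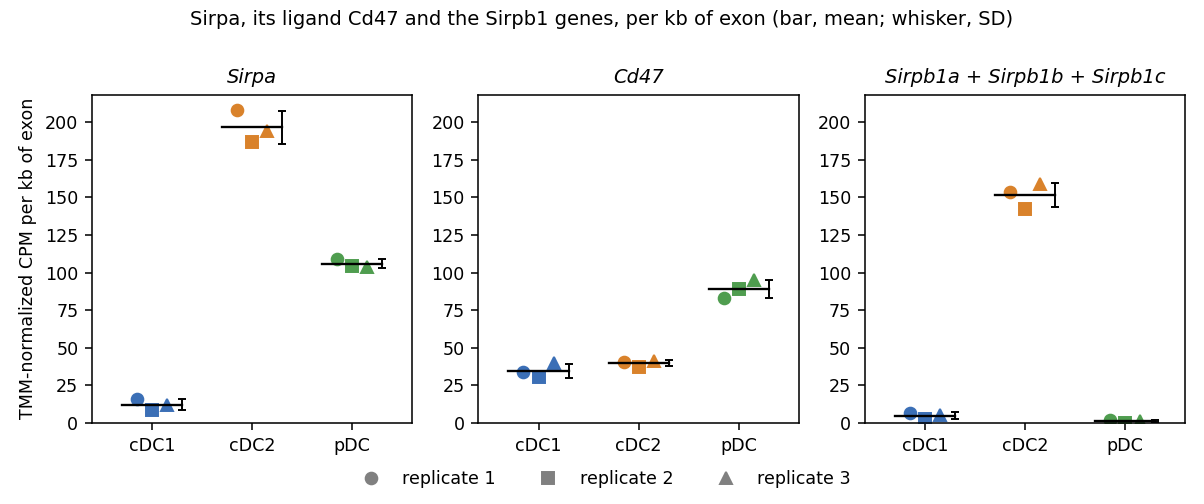
TMM-normalized CPM per kb of exon (y axis, linear from 0, one scale) of Sirpa, Cd47 and the sum of Sirpb1a, Sirpb1b and Sirpb1c in the 9 libraries, by subset. Points are libraries, bars are means and whiskers are SD (n = 3); pDC hold 106 ± 2.89 of Sirpa beside a Sirpb1 sum near 0, whereas cDC2 are high in both.

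Most of the Cd300 genes lie in one cluster on chromosome 11. Cd300a (ENSMUSG00000034652, plus strand, chr11:114890041-114904654), Cd300lb (ENSMUSG00000063193, minus strand, chr11:114922781-114934386), Cd300ld (ENSMUSG00000034641, minus strand, chr11:114982274-114989922) and Cd300lf (ENSMUSG00000047798, minus strand, chr11:115116214-115133992) are neighbours there, and Cd300lg (ENSMUSG00000017309, plus strand, chr11:102041509-102055620) stands apart from them on the same chromosome. Between 0% and 2.33% of their 75-base stretches occur in another gene.

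Cd300a encodes an inhibitory receptor for phosphatidylserine and phosphatidylethanolamine on dying cells. It stood at 401, 342 and 413 CPM in cDC2, 180.5, 139 and 198 in pDC, and 104, 95.7 and 119 in cDC1, so that the subsets formed 3 levels without overlap. Against cDC1, the log2 fold change of Cd300a was 1.86 in cDC2 (SE 0.151, adjusted p = 2.33e-05, edgeR) and 0.70 in pDC (SE 0.147, adjusted p = 0.00299, edgeR), and against cDC2 it was -1.16 in pDC (SE 0.148, adjusted p = 0.000141, edgeR).

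Cd300lf, the other inhibitory CD300 receptor, is known as a receptor for ceramide and as the entry receptor of murine norovirus. It stood at 115, 130.0 and 99.0 CPM in pDC, 92.3, 103 and 70.9 in cDC2 and only 11.7, 8.84 and 11.0 in cDC1. It was thus low in cDC1 alone, by a log2 fold change of 3.45 for pDC (SE 0.188, adjusted p = 4.95e-07, edgeR) and 3.08 for cDC2 (SE 0.186, adjusted p = 4.91e-06, edgeR) against cDC1. The pDC and cDC2 libraries overlapped, and their difference of 0.37 (SE 0.169) did not pass (adjusted p = 0.105, edgeR), but pDC was higher in 3 of 3 same-numbered pairs and passed with the replicate number as a block (0.37, adjusted p = 0.0398, edgeR). Per kb, Cd300lf made 0.0914 ± 0.0110 of the Cd300a level in cDC1, 0.216 ± 0.0599 in cDC2 and 0.635 ± 0.203 in pDC (SD, n = 3). The mix of the 2 inhibitory receptors therefore differed between the subsets, with the 3 ranges apart. Over the longest coding transcript in place of all exons, Cd300lf came to 5.58, 47.1 and 60.8 CPM per kb in cDC1, cDC2 and pDC instead of 2.04, 17.3 and 22.3, so its place beside Cd300a depends on the transcript assumed.

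Cd300ld and Cd300lb, both activating, were high in cDC2 alone. Cd300ld, which pairs with the Fc receptor gamma chain, reached 75.1, 76.2 and 83.5 CPM in the cDC2 libraries, but 3.61, 2.29 and 2.98 in cDC1 and 4.06, 1.62 and 3.65 in pDC. It was 26.3-fold higher in cDC2 than in cDC1 (log2 4.72, SE 0.312, adjusted p = 7.59e-06, edgeR) and 24.9-fold lower in pDC than in cDC2 (log2 -4.64, SE 0.309, adjusted p = 1.72e-06, edgeR). The pDC and cDC1 libraries overlapped, with a log2 difference of 0.08 (SE 0.302, adjusted p = 0.841, edgeR). Cd300lb, which signals through DAP12, reached 30.9, 25.8 and 39.0 CPM in the cDC2 libraries, 2.44, 1.71 and 2.10 in cDC1 and 3.54, 1.17 and 5.89 in pDC. Again the cDC2 libraries lay far above the rest, by a log2 fold change of 3.93 against cDC1 (SE 0.480, adjusted p = 0.000264, edgeR), and pDC lay below cDC2 by -3.18 (SE 0.459, adjusted p = 0.000317, edgeR). For pDC against cDC1 it was 0.75 (SE 0.465, adjusted p = 0.215, edgeR), and without pDC replicate 2, the lowest pDC library, it was 1.13 (adjusted p = 0.0135, edgeR).

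Cd300lg encodes nepmucin, a CD300 family protein best known from endothelium. It was low throughout, at 11.3, 9.59 and 9.30 CPM in cDC2, 8.41, 3.95 and 4.48 in pDC and 2.04, 1.83 and 3.39 in cDC1, with 44 to 353 reads per library. No library of one subset overlapped another. Between cDC2 and cDC1 the log2 fold change of Cd300lg was 2.07 (SE 0.357, adjusted p = 0.00218, edgeR). For pDC against cDC1 it was 1.24 (SE 0.353, adjusted p = 0.0154, edgeR), a call lost without cDC1 replicate 1 (adjusted p = 0.0623, edgeR), cDC1 replicate 2 (adjusted p = 0.0618, edgeR) or pDC replicate 1 (adjusted p = 0.0675, edgeR). For pDC against cDC2 it was -0.83 (SE 0.338, adjusted p = 0.0712, edgeR), and it passed with the replicate number as a block (-0.88, adjusted p = 0.0384, edgeR), by DESeq2 (-0.84, adjusted p = 0.0432), by limma-voom (-0.80, adjusted p = 0.0350) and without pDC replicate 1 (-1.25, adjusted p = 0.0137, edgeR). The 8 endothelial markers summed to 25.8 to 35.6 CPM in cDC1, 77.1 to 98.8 in cDC2 and 515 to 520.4 in pDC. In cDC2 Esam, a gene also on the cDC2 marker list, averaged 72.6 CPM of the sum. In pDC, Cdh5 and Kdr averaged 324 and 175 CPM, while Emcn was at 0 in all 9 libraries and Tie1 averaged 0.209 CPM or less. That order is not the order of Cd300lg, and its part in the Cd300lg level was not tested.

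The Cd300 genes outside the named set were read from a list of other members of the 3 families. It held 11 genes in the table, of which 7 were tested. Between pDC and cDC2, 1 of the 7 was higher in pDC (Cd300c) and 6 were lower, beside 22.5% and 23.3% of all genes tested. Between cDC2 and cDC1, 5 were higher in cDC2 and Cd300c was lower, beside 12.7% and 11.7% of all genes tested. Cd300e did not pass there (log2 -0.77, adjusted p = 0.0537, edgeR, and with the replicate number as a block adjusted p = 0.0212, edgeR). Of all genes tested, 24.3% were higher and 24.4% lower in pDC than in cDC1. In that comparison Cd300c was higher in pDC, Cd300e and Sirpb1a were lower, and 4 did not pass. Among these, Sirpb1b had a log2 fold change of -1.35 (SE 0.535, adjusted p = 0.0617, edgeR; adjusted p = 0.0284 with the block). Of the other 4 genes, Cd300lh, Gm11709 and Gm11710 had at most 6 reads in any library and Gm11711 had none. These 4 lie in the same cluster, and 22.2% to 100% of their 75-base stretches occur in one another. Their reads therefore cannot be assigned to one of them with certainty. For Gm11711, Gm11710 and Cd300lh, with 100%, 90.4% and 81.5% shared, counts at or near 0 do not show that the transcript is absent. The 4 genes were left out of the Cd300 sums below.

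Cd300c had the opposite pattern to Cd300ld. This activating receptor gene stood at 223, 231 and 266 CPM in pDC, 9.91, 7.38 and 13.4 in cDC1 and 5.04, 4.31 and 2.71 in cDC2. In pDC it was higher by a log2 fold change of 4.56 than in cDC1 (SE 0.267, adjusted p = 7.36e-07, edgeR) and of 5.88 than in cDC2 (SE 0.287, adjusted p = 2.44e-07, edgeR), and cDC2 lay below cDC1 by -1.32 (SE 0.253, adjusted p = 0.00397, edgeR). Cd300e, an activating receptor gene of monocytes, ran the other way, at 35.9, 33.6 and 28.7 CPM in cDC1, 19.8, 17.6 and 20.2 in cDC2 and 2.72, 1.22 and 3.12 in pDC. The gene listed as AF251705, which the GENCODE annotation names Cd300c2, had 145 ± 8.95 CPM in cDC2, and 59.8 ± 11.0 in pDC beside 56.3 ± 6.66 in cDC1 (SD, n = 3).

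Each subset therefore had its own composition of the 8 Cd300 genes. Their summed level was 96.5 ± 9.99 CPM per kb in cDC1, 269 ± 15.1 in cDC2 and 336 ± 32.4 in pDC (SD, n = 3). In pDC, Cd300c made 65.7%, 68.4% and 66.7% of the sum in replicates 1, 2 and 3, and in cDC2 it made 1.69%, 1.60% and 0.921%. Cd300a made 30.1 ± 1.43% in cDC2, 23.2 ± 1.28% in cDC1 and 10.8 ± 1.38% in pDC. Cd300ld made 11.0 ± 0.742% in cDC2, 1.15 ± 0.178% in cDC1 and 0.348 ± 0.145% in pDC. In cDC1, AF251705 led with 45.7 ± 1.02%, and Cd300e made 16.4 ± 2.88% there against 0.331 ± 0.128% in pDC.

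**Figure D4:**
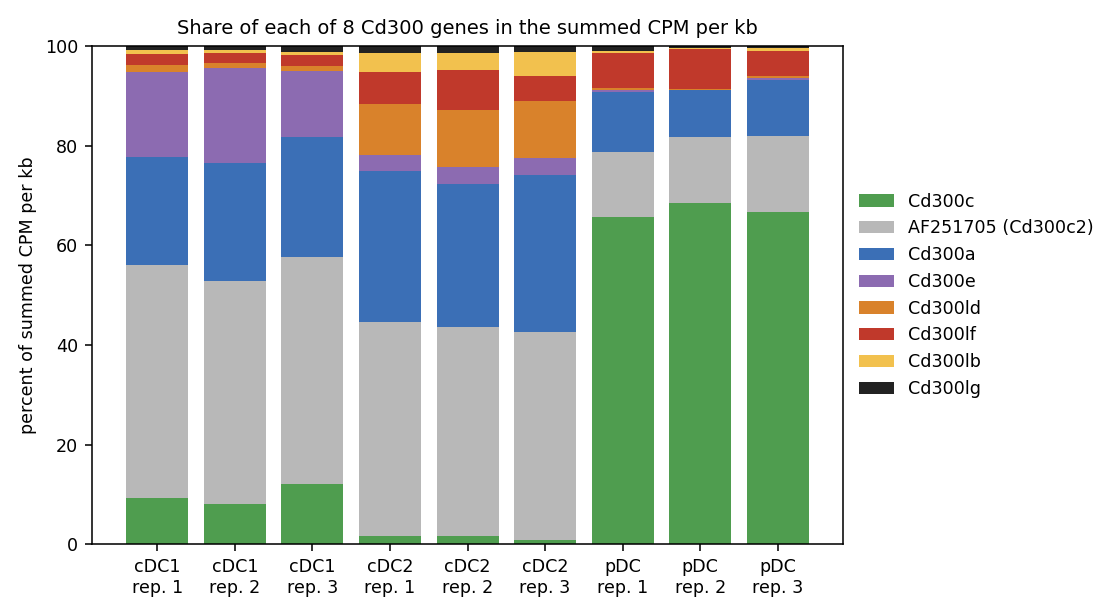
Percent of the summed CPM per kb (y axis) that each of 8 Cd300 genes makes in each of the 9 libraries (x axis), as stacked bars from 0 to 100. The 3 pDC bars are mostly Cd300c, at 67.0 ± 1.36%, whereas Cd300ld takes 11.0% of the cDC2 bars and 1.15% of the cDC1 bars.

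Pilra (ENSMUSG00000046245, minus strand, chr5:137821952-137836281) and Pilrb1 (ENSMUSG00000066684, minus strand, chr5:137852147-137858106) encode the inhibitory and the activating member of one pair, and Pilrb2 is a further activating copy beside them. They are near copies of each other also before their start sites. Their promoter sequences (RefSeq, GRCm38.p6, minus strand, written 5′ to 3′) are shown to make this visible. The 120 bases that end just before the Pilra start (chr5:137836279-137836398) are set against the matching stretches of Pilrb1 (chr5:137858104-137858223) and Pilrb2 (chr5:137871813-137871932), with the positions at which the 3 differ in capitals:
Pilra: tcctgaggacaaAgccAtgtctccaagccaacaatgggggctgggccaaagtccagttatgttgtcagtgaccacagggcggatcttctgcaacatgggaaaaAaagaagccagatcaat
Pilrb1: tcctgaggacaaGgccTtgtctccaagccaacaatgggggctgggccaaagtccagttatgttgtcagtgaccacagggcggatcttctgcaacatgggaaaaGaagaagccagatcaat
Pilrb2: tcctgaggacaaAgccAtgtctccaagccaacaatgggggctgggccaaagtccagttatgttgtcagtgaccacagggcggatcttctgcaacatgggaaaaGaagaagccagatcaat

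Over the 246 bases that the Pilra and Pilrb1 windows share, 98.4% were identical (4 differences), and the annotated Pilrb1 start lies 54 bases further downstream than the Pilra start in this alignment. Pilra and Pilrb2 were 99.2% identical over the same length.

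Despite these windows, the values of the pair parted in pDC, although that difference between the genes was not tested. Pilra stood at 11.1, 8.16 and 11.6 CPM in cDC2, 8.23, 3.85 and 7.36 in pDC, and 2.73, 0.542 and 2.91 in cDC1. Every cDC1 library lay below every other library, and cDC2 and pDC overlapped. Against cDC1, Pilra was higher in cDC2 by a log2 fold change of 2.33 (SE 0.535, adjusted p = 0.0103, edgeR) and in pDC by 1.67 (SE 0.530, adjusted p = 0.0254, edgeR), and the difference of pDC from cDC2 was -0.66 (SE 0.499, adjusted p = 0.316, edgeR). The call for pDC against cDC1 was lost in a fit of those 6 libraries alone (1.65, adjusted p = 0.0605, edgeR) and without pDC replicate 1 (1.45, adjusted p = 0.0782, edgeR). Of its 75-base stretches, 12.2% also occur in Zcwpw1, a gene on the opposite strand whose exons overlap those of Pilra. The libraries keep the strand, but whether the counting used it is not given in the sources used here, and without it such reads cannot be told apart.

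Pilrb1 stood at 8.26, 6.37 and 12 CPM in cDC2, 1.70, 0.811 and 3.36 in pDC, and 1.17, 0.876 and 1.96 in cDC1. It was thus high in cDC2 alone, and pDC and cDC1 overlapped. Pilrb1 was higher in cDC2 than in cDC1 by a log2 fold change of 2.75 (SE 0.532, adjusted p = 0.00406, edgeR) and lower in pDC than in cDC2 by -2.19 (SE 0.514, adjusted p = 0.00606, edgeR), and pDC differed from cDC1 by 0.56 (SE 0.527, adjusted p = 0.413, edgeR). Pilrb2 was likewise highest in cDC2, at 9.43, 7.56 and 8.4 CPM, against 0 to 1.39 CPM in the other 6 libraries. Pilrb1 shares 9.27% of its 75-base stretches with Pilrb2. Per kb, Pilrb1 per Pilra was 1.17, 1.23 and 1.64 in cDC2 and 0.325, 0.332 and 0.720 in pDC, so every pDC library had more of the inhibitory and every cDC2 library more of the activating transcript. In cDC1, where both genes had between 13 and 75 reads, the ratio ran from 0.674 to 2.55.

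Marker sets of other cell types also differed between the libraries. The 10 macrophage markers summed to 169 to 261 CPM in cDC1, 508 to 731 in cDC2 and 63.5 to 240.3 in pDC, with none at 0 over a whole subset, and 3, 9 and 7 of them stood above 10 CPM in cDC1, cDC2 and pDC. Emr1 alone averaged 344 CPM in cDC2. The 10 neutrophil markers summed to 9.88 to 45.8, 45.1 to 104 and 8.01 to 77.1 CPM. Within pDC, replicate 2 was the lowest library for both sums (63.5 and 8.01 CPM). It was also lowest there for Cd300a, Cd300lb, Cd300ld, Cd300lg, Pilra and Pilrb1, but not for Cd300lf, Sirpa and Cd47. In cDC1, replicate 2 was lowest for both sums (169 and 9.88 CPM) and for all 9 genes. In cDC2, replicate 2 was again lowest for both sums (508 and 45.1 CPM). Of the 9 genes, only Cd300ld, Cd300lf and Cd300lg were not lowest in that cDC2 library. The 7 NK cell markers summed to 15.2 to 37.6 CPM in cDC1, 83.8 to 189 in cDC2 and 18.4 to 63.9 in pDC, and were highest in replicate 3 of each subset. The part of these cell types in the 9 genes was not tested. Without replicate 3, an alternative chosen after the data were seen, 8, 6 and 6 of the 9 genes passed for cDC2 against cDC1, pDC against cDC1 and pDC against cDC2. Of all genes tested, 5356 of 14221 then passed for cDC2 against cDC1, beside 3370 of 13819 with all libraries. For pDC against cDC1 and pDC against cDC2, 8958 and 8507 of 14221 then passed, beside 6718 and 6328 of 13819. The 6 of 9 genes in each pDC comparison thus lay near the share of all genes. The 8 monocyte markers summed to 959 to 1334 CPM in cDC1, 1423 to 1909 in cDC2 and 4681 to 6301 in pDC. Ly6c2 and Plac8 made 2226 and 2807 CPM of the pDC sum, and Ccr2 was also highest there (275 CPM on average). Csf1r and Ms4a4c instead peaked in cDC2, with averages of 371 and 213 CPM. Their cDC1 averages were 64.0 and 19.1 CPM, and their pDC averages were 60.0 and 35.5 CPM. Fn1, Chi3l3 and F13a1 averaged 24.5 CPM or less in every subset. The part of monocytes in the 9 genes was not tested.

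Ranked per kb of exon, Sirpa led in cDC2 (197 ± 10.8 CPM per kb) and pDC (106 ± 2.89), and Cd47 led in cDC1 (34.7 ± 4.48; SD, n = 3 for each). In cDC2 the order below Sirpa was Cd300a, Cd47, Cd300ld, Cd300lf and Cd300lb, with no overlap between neighbours, and then Pilrb1, Cd300lg and Pilra, whose neighbours overlapped. In pDC it was Sirpa, Cd47, Cd300a and Cd300lf without overlap, and the 5 below them, from Pilra at 2.10 to Pilrb1 at 0.999 CPM per kb, overlapped from neighbour to neighbour. In cDC1, Cd47, Cd300a, Sirpa, Cd300lf and Cd300ld formed separate steps. There Cd300ld, Cd300lg, Cd300lb, Pilrb1 and Pilra, from 1.12 to 0.667 CPM per kb, overlapped from neighbour to neighbour. These orders depend on the length used. Over the longest coding transcript, Cd300lf in cDC2 (47.1 ± 8.74 CPM per kb) stood above Cd300ld (29.6 ± 1.72) and beside Cd47 (47.5 ± 2.35). In pDC, Cd300lf (60.8 ± 8.22) then stood above Cd300a (37.1 ± 6.45, SD, n = 3 for each). The lowest places also changed in cDC1 and cDC2.

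Promoter windows of 250 bases before the RefSeq start were given for 7 of the 9 genes, Sirpa and Cd300lg being the others. The letters AGGAAG, read on either strand, are a core bound by ETS factors such as PU.1. They were chosen after the windows were read, so their count is a description. They occurred within 120 bases before the start in 5 of the 7 (Cd300a, Cd300lb, Cd300ld, Cd300lf and Pilrb1), and in 16.3% of all 32851 windows. Within 250 bases they occurred in 6 of the 7, Cd47 being the exception, and in 29.5% of all windows. Pilra also held them at position 2, just after its annotated start, where the aligned Pilrb1 window has its match at -52. Whether that shared match counts as before the start thus depends on the annotated start. The stretches of 4 genes that differ in pattern are printed with these letters in capitals. Cd300a (chr11:114889921-114890040, plus strand), Cd300lb (chr11:114934372-114934491, minus strand), Cd300lf (chr11:115133993-115134112, minus strand) and Cd300c (chr11:114960508-114960627, minus strand) each end 1 base before the start:
Cd300a: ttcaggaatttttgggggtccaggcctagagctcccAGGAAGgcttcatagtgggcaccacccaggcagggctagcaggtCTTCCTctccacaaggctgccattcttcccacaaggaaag
Cd300lb: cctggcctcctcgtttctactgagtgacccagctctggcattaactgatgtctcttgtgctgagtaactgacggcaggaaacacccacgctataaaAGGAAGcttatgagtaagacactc
Cd300lf: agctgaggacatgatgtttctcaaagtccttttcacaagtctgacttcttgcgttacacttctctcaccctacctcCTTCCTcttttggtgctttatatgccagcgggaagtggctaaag
Cd300c: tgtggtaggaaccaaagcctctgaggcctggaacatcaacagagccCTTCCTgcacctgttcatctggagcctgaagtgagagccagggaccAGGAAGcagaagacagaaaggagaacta

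The cDC2-high Cd300lb, the pDC-high Cd300c and Cd300lf, which is high in both, all held these letters. An IRF element, taken as 2 copies of GAAA set 2 bases apart on either strand, occurred within 250 bases in 2 of the 7 genes (Pilra and Pilrb1) and in 2.98% of all windows. These 2 matches, at -178 in Pilra and -232 in Pilrb1, are the same stretch of the near-identical aligned windows, whose starts lie 54 bases apart. They are therefore not separate occurrences. Among the other family genes with a window, 4 of 7 held the IRF element, Sirpb1a (-227), Sirpb1b (-134), Cd300c (-231) and Pilrb2 (-232). The Pilrb2 match has the same position as that of Pilrb1, in windows that were 97.3% identical. The E-box letters CAGNTG, read on either strand and bound by E proteins such as TCF4, occurred in Cd300ld alone of the 7 and in 44.8% of all windows. Of 7 other family genes with a window, 2 held them. These were the pDC-high Cd300c, with 3 matches, and Cd300e, which was lowest in pDC, with 1. None of the matches in the 7 windows overlaps a match of another motif.

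The machinery below the receptors was read from 2 further lists. Of 12 ITAM adaptors and kinases, all tested, 6 passed as higher and 3 as lower in pDC against cDC1, with a median log2 fold change of 0.60. Of all genes tested, 24.3% were higher and 24.4% lower in that comparison. In cDC2 against cDC1, 6 were higher and 1 lower (median 0.53), beside 12.7% and 11.7% of all genes. With the replicate number as a block, 7 were higher and 2 lower, beside 18.5% and 17.1% of all genes. In pDC against cDC2, 4 were higher and 3 lower (median 0.17), beside 22.5% and 23.3% of all genes. The counts of lower genes on this list thus lay near the shares of all genes. Tyrobp, which encodes DAP12, stood at 2317, 2100.5 and 2430.1 CPM in pDC, 846, 729 and 772 in cDC2 and 389.5, 327 and 408 in cDC1. It was thus highest in pDC, where Cd300lb and Pilrb1, which need DAP12, were low. Tyrobp was higher in pDC by 2.61 than in cDC1 (SE 0.115, adjusted p = 1.35e-07, edgeR) and by 1.55 than in cDC2 (SE 0.111, adjusted p = 2.74e-06, edgeR). Fcer1g stood at 427 ± 80.7 CPM in pDC, 382 ± 51.9 in cDC2 and 55.1 ± 19.8 in cDC1 (SD, n = 3). Its difference between cDC2 and cDC1 was 2.79 (SE 0.259, adjusted p = 5e-05, edgeR). Syk, the kinase that ITAMs recruit, was higher in cDC2 than in cDC1 (1.31, SE 0.163, adjusted p = 0.0003, edgeR) and higher again in pDC (0.61 against cDC2, SE 0.161, adjusted p = 0.0113, edgeR). Among Src family kinases, Fyn stood at 960.1 ± 142 CPM in pDC and at 98.1 ± 0.944 and 91.6 ± 6.87 in cDC1 and cDC2, whereas Fgr stood at 702 ± 7.07 in pDC, 619 ± 50.5 in cDC2 and 121 ± 21.4 in cDC1 (SD, n = 3). The difference of Fgr between pDC and cDC2 was 0.18 (SE 0.130, adjusted p = 0.287, edgeR). Lyn was highest in cDC2, at 537 ± 9.74 CPM against 391 ± 18.1 in cDC1 and 421 ± 14.1 in pDC (SD, n = 3). It was lower in pDC than in cDC2 by -0.35 (SE 0.0799, adjusted p = 0.0051, edgeR).

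Of 9 ITIM phosphatases and partners, all tested, 4 were higher and 4 lower in pDC than in cDC1 (median log2 fold change 0.34), beside 24.3% and 24.4% of all genes. In cDC2 against cDC1, 5 were higher and 2 lower (median 0.49), beside 12.7% and 11.7%. In pDC against cDC2, 1 was higher and 2 lower (median -0.13), no more than the 22.5% and 23.3% of all genes. With the replicate number as a block, 3 were higher and 3 lower, beside 27.1% and 28.4% of all genes. Ptpn6, which encodes SHP-1, stood at 1009, 1038 and 858 CPM in pDC, 769, 798 and 665 in cDC2 and 288, 268 and 223 in cDC1. It was therefore lowest where Sirpa and Cd300lf were lowest. Against cDC1, its log2 fold change was 1.90 in pDC (SE 0.129, adjusted p = 1.84e-06, edgeR) and 1.52 in cDC2 (SE 0.128, adjusted p = 2.79e-05, edgeR). Inpp5d, which encodes the phosphatase SHIP1, was highest in cDC1, at 667 ± 92.2 CPM against 406 ± 21.2 in cDC2 and 372 ± 51.4 in pDC (SD, n = 3). Its log2 fold changes against cDC1 were -0.72 in cDC2 (SE 0.133, adjusted p = 0.00336, edgeR) and -0.84 in pDC (SE 0.134, adjusted p = 0.00055, edgeR). Ptpn11, which encodes SHP-2, averaged 142 ± 19.2 CPM over the cDC1 libraries, 122 ± 2.6 over cDC2 and 102 ± 6.09 over pDC (SD, n = 3), and the cDC1 and cDC2 libraries overlapped. It was lower in pDC than in cDC1 by -0.47 (SE 0.115, adjusted p = 0.00698, edgeR), while cDC2 against cDC1 did not pass (-0.22, SE 0.115, adjusted p = 0.222, edgeR). For pDC against cDC2 the log2 value of Ptpn11 was -0.26 (adjusted p = 0.0971, edgeR; adjusted p = 0.0267 with the block). Pik3r1, the regulatory subunit gene of PI3 kinase, was 0.34 on the log2 scale against cDC1 (adjusted p = 0.215, edgeR; adjusted p = 0.00753 with the block) and 0.34 against cDC2 (adjusted p = 0.225, edgeR; adjusted p = 0.00923 with the block) in pDC. Skap2, an adaptor that binds SIRPa, was also lower in pDC than in cDC1 (-0.65, SE 0.102, adjusted p = 0.000513, edgeR).

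**Figure D5:**
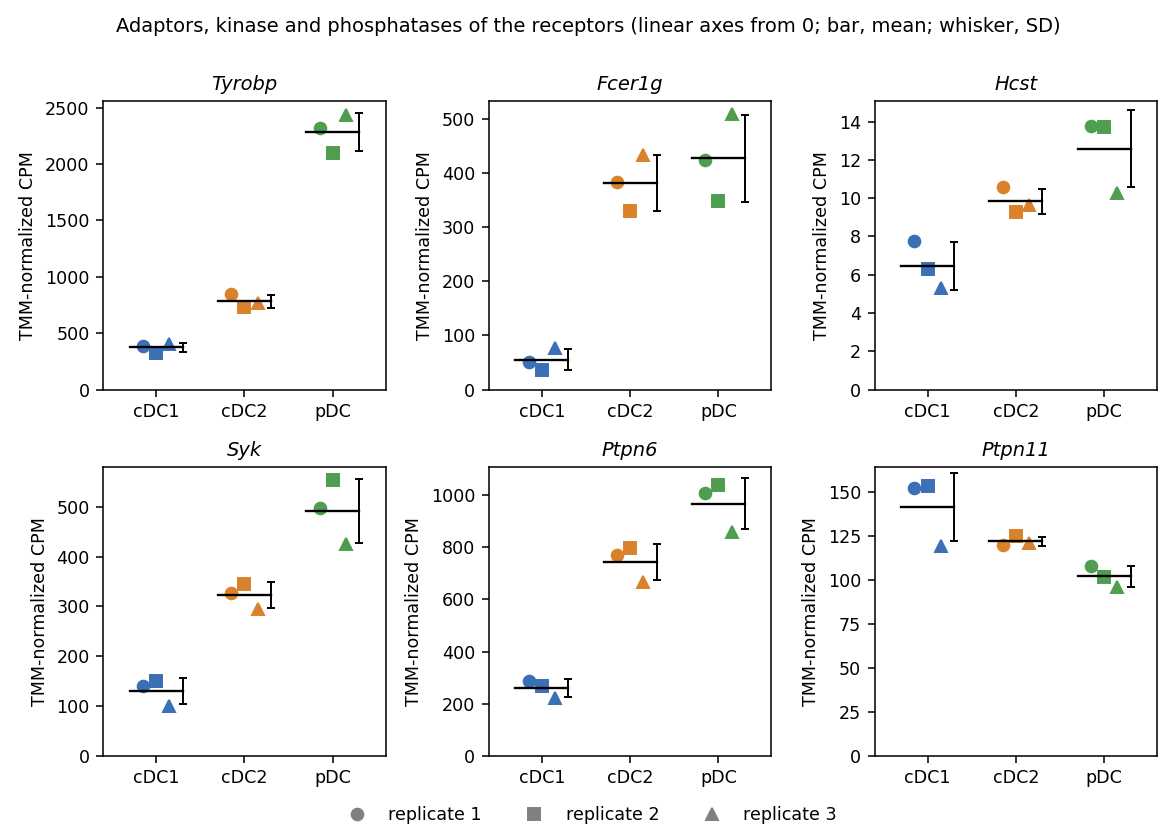
TMM-normalized CPM (y axis, linear from 0, scaled to each gene) of the adaptor genes Tyrobp, Fcer1g and Hcst, the kinase gene Syk and the phosphatase genes Ptpn6 and Ptpn11 in the 9 libraries, by subset (x axis). Points are libraries, bars are means and whiskers are SD (n = 3); Tyrobp rises from 375 ± 42.1 in cDC1 to 2283 ± 168 in pDC, and Ptpn11 stands at 142 in cDC1, 122 in cDC2 and 102 in pDC.

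Of 13 ligands and CD47 partners in the table, 10 were tested. In pDC against cDC1, 5 were higher and 3 lower (median log2 fold change 1.26), beside 24.3% and 24.4% of all genes tested. In pDC against cDC2, 5 were higher and 2 lower (median 0.86), beside 22.5% and 23.3%, and in cDC2 against cDC1, 2 were higher and 3 lower (median -0.14), beside 12.7% and 11.7%. Qpctl, whose enzyme modifies CD47 so that SIRPa can bind it, stood at 23.0, 22.6 and 16.4 CPM in pDC, 10.3, 11.5 and 9.48 in cDC1 and 6.98, 7.07 and 7.92 in cDC2. It was thus highest in the subset with the most Cd47, by 0.99 against cDC1 (SE 0.180, adjusted p = 0.00131, edgeR) and 1.5 against cDC2 (SE 0.182, adjusted p = 0.000101, edgeR). Pianp, which encodes a ligand of PILRa, stood at 127, 128 and 151 CPM in cDC1, 4.69, 6.93 and 7.55 in cDC2 and 1.60, 0.101 and 1.47 in pDC. The ligand was therefore high in the subset in which its receptor gene Pilra was lowest, with a log2 fold change of -4.41 for cDC2 against cDC1 (SE 0.445, adjusted p = 8.13e-05, edgeR). Havcr1, a gene of a phosphatidylserine receptor of the TIM family, stood at 397, 382 and 368 CPM in pDC and at 2.40 or less elsewhere. Thbs1, which encodes the soluble CD47 ligand thrombospondin-1, was at 2.06 CPM or less in all 9 libraries.

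Other paired receptor families were read for comparison, with 18 genes in the table and 15 tested. In cDC2 against cDC1, 8 were higher and 2 lower (median log2 fold change 1.10), beside 12.7% and 11.7% of all genes tested. In pDC against cDC1, 5 were higher and 2 lower (median 0.46), beside 24.3% and 24.4%, and in pDC against cDC2, 3 were higher and 9 lower (median -1.79), beside 22.5% and 23.3%. Pirb, an inhibitory receptor gene, stood at 243 ± 5.64 CPM in cDC2, 228 ± 4.44 in pDC and 145 ± 7.69 in cDC1 (SD, n = 3). Treml4 ran the other way, at 382, 414 and 371 CPM in cDC1, 93.6, 95.1 and 107 in cDC2 and 10.6, 2.94 and 12.3 in pDC, and Treml2 stood at 99.0 ± 7.29 CPM in pDC against 8.75 ± 0.933 in cDC1 and 4.23 ± 0.400 in cDC2 (SD, n = 3).

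The genes whose pattern over the 9 libraries was most like that of each receptor were found by Pearson's r of log2(CPM + 1). These values describe 9 points in 3 subsets that share libraries and sorts. Sirpa was most like Rgl1 and Abi3 (r = 0.997 and 0.996) and Cd47 most like Cib1 and Nr2c2ap (0.998 and 0.997). Cd300lf was most like Plxnb2 and Ddr1 (0.997 and 0.996), and Cd300a most like Tmem164 and Nfam1 (0.992 for both). Cd300ld was most like Slc8a2 and Ifitm1 (0.996 for both) and Cd300lb most like Clec4a3 and Msr1 (0.99 for both), while Pilrb1 was most like Ccl9 and Reep3 (0.989 and 0.987). The low genes Cd300lg, with Akt2 and Elk1 (0.966 and 0.963), and Pilra, with Clp1 and Eid2b (0.959 and 0.954), had weaker nearest genes. Among the 9 genes, Pilrb1 and Cd300lb had the highest r with each other (0.979), and Cd47 and Cd300ld the lowest (-0.36).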

How the data were processed

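Raw read counts per gene were deposited by the authors as one table with a column for each of the 9 libraries, not normalized. Libraries were made with a stranded mRNA kit and read from one end over 75 bases. The submitters' processing notes name STAR, SAMtools, MultiQC, featureCounts and mm10, without versions, and the annotation release and the strand setting of the counting are not given in the sources used here. The files were grouped by the subset in the sample titles, and all 9 columns of samples were used.

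Genes were kept by filterByExpr (minimum count 10), which left 13819 of 39179. After TMM scaling, one fit over the 9 libraries took the subset as its only term, and contrasts were tested by the quasi-likelihood method of edgeR 4.0.16 in R 4.3.3, with Benjamini-Hochberg adjustment over all genes tested and a threshold of 0.05. Alternatives were other scalings and filters, DESeq2 1.42.0, limma-voom (limma 3.58.1), fits of 6 libraries, stricter thresholds, the replicate number as a block, and libraries left out. Same-numbered libraries carry the same date code in the sample descriptions, which is the source of the pairing, and their deviations from the subset means correlated across genes at a mean of 0.403 (0.266 to 0.543 over 9 pairs). Replicates of one subset also differed beyond sampling noise (chi-square per degree of freedom 10.6 to 67.9).

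Lengths, positions and shared 75-base stretches come from GENCODE M21 on GRCm38, and promoter sequences from RefSeq on GRCm38.p6. Levels per kb used the union of exons. The members and lists were chosen with earlier results of these data known. Named genes are the 9 members, on each list the most highly expressed genes and the direct partners, and for each member the 2 genes most like it. The list of other family genes is named in full, and of the ligands list Cd99l2, Npdc1, Timd4 and Itgb3 are not described. Figures were drawn with matplotlib 3.10.9. Stimulated cells and human cells were not analysed here. A few genes on the lists enter the counts but are not named.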

Additional observations from a re-analysis of the deposited data

How the results depend on the processing

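The number of the 9 genes past the threshold stayed within 1.5 times its value under all alternatives tried: 7 to 9 for cDC2 against cDC1, 4 to 7 for pDC against cDC1 and 5 to 8 for pDC against cDC2. With the replicate block the numbers were 8, 6 and 8, while the higher and lower shares of all genes rose to 18.5% and 17.1%, 29.2% and 29.4%, and 27.1% and 28.4%, and apart from Cd300lf and Cd300lg in pDC against cDC2 it changed no other call of the 9 genes. Among the alternative values of the log2 fold changes, 496 kept their direction and their side of the threshold, 7 came to pass it, 5 no longer passed and 5 changed sign. With single libraries left out, Cd300ld in pDC against cDC1 ran from -0.18 to 0.36, below 0 without cDC1 replicate 2 (-0.079), pDC replicate 1 (-0.18) or pDC replicate 3 (-0.011). Without all replicate 3 libraries, chosen after the data were seen, it was -0.015. Pilrb1 in pDC against cDC1 ran from -0.014 without pDC replicate 3 to 0.90 without pDC replicate 2. Neither of these main values passed the threshold. Replicate 3 had the fewest counts, and Pilra and Pilrb1 had as few as 13 and 16 counts in a library, and Sirpb1a and Sirpb1b 4 and 3. Levels per kb rest on the annotated exons: over the longest coding transcript, 9 of 27 moved by more than the SD between libraries.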
